A study of Mus musculus with 9 samples.

Results

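The S100 proteins are small EF-hand calcium-binding proteins, and 9 of their genes were examined in 6 alveolar rhabdomyosarcomas of mice and 3 samples of wild-type skeletal muscle. The genes were S100a1, S100a4, S100a6, S100a8, S100a9, S100a10, S100a11, S100a13 and S100b. They were chosen by name, and their values were read from every probe set whose platform annotation gave 1 of these symbols and no other. By that rule 8 of the 9 genes and 11 probe sets were found, out of 12393 genes and 20380 probe sets with 1 symbol. S100a1, S100a10 and S100b had 2 probe sets each and the other 5 genes had 1. The remaining member, S100a11, had a single probe set, which the annotation assigned to 3 symbols including an S100a11 pseudogene, so no value is given for it. Each sample was total RNA on 1 Affymetrix array, and each value is a MAS5 signal, a linear brightness in arbitrary units. This tumour arises in soft tissue and expresses genes of skeletal muscle. The labels name the tumours and the muscles only by these terms and give no genotype, strain, age, treatment or muscle of origin, nor whether samples came from separate animals. P-values therefore measure the spread between these samples, which may in part be technical, and the number of arrays limits their precision.

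Most S100 proteins form dimers that open a hydrophobic face when they bind calcium and then bind other proteins. S100a1 is best known from heart and skeletal muscle, where its protein binds calcium pumps and ryanodine receptors. S100a4, S100a6, S100a10 and S100a11 are widely used as genes of mesenchymal and motile cells, S100a8 and S100a9 encode the 2 chains of calprotectin in neutrophils and monocytes, and S100b is best known from glia and is also expressed in adipocytes. In bulk tissue such as this, fewer cells of a type and less RNA per cell cannot be told apart.

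As deposited, the trimmed mean signal of muscle 1 (294.3) and muscle 3 (140.9) was below that of the other 7 arrays (about 500.2), and every array was multiplied to the same trimmed mean before use. Without that step the median difference of all genes between tumour and muscle was 0.79 instead of 0.10 on the log2 scale, and 2373 of 2742 called genes were higher in tumours instead of 1073 of 2200. The count of 2200 was 1267 without muscle 2 and 1110 without muscle 3. Gapdh control probe sets, whose 3' over 5' ratio is a sign of RNA quality, gave ratios of 1.93 to 9.39 on tumour arrays and 1.68, 57.2 and 33.0 on muscles 1, 2 and 3. The Actb ratios were 3.35 to 6.78 on tumour arrays and 1.87, 4.06 and 4.35 on the muscles. By Actb, muscles 2 and 3 thus lay within the tumour range and muscle 1 below it. Muscle fibre genes separated the groups as labelled, with 11 of 12 lower in tumours, against 9.09% of all genes. Their summed signal was 1776 to 132297 in tumours and 217085 to 302945 in muscles. The highest tumour sum was that of tumour 1.

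Of the 8 S100 genes with a value, 3 were higher in tumours, none was called lower and 5 were not called. The 3 were S100a6, S100a8 and S100a10. The test was limma over all genes on log2(signal + 16), and a gene was called at a Benjamini-Hochberg adjusted p under 0.05. Over all genes, 8.66% were called higher and 9.09% lower. The median log2 difference, tumour minus muscle, was 2.09 over the 8 genes and 0.10 over all genes. Tumour and muscle signals did not overlap for 4 of the 8 genes, S100a6, S100a8, S100a10 and S100b, against 21.6% of all genes. Without rescaling, those of S100b did overlap. By probe set, 4 of 11 were called higher and none lower, against 7.8% and 7.89% of all probe sets (15.7% in either direction), and 5 of 11 did not overlap between the groups, against 20.1% of all probe sets. The muscle member S100a1 was not called on either of its probe sets.

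**Figure D1:**
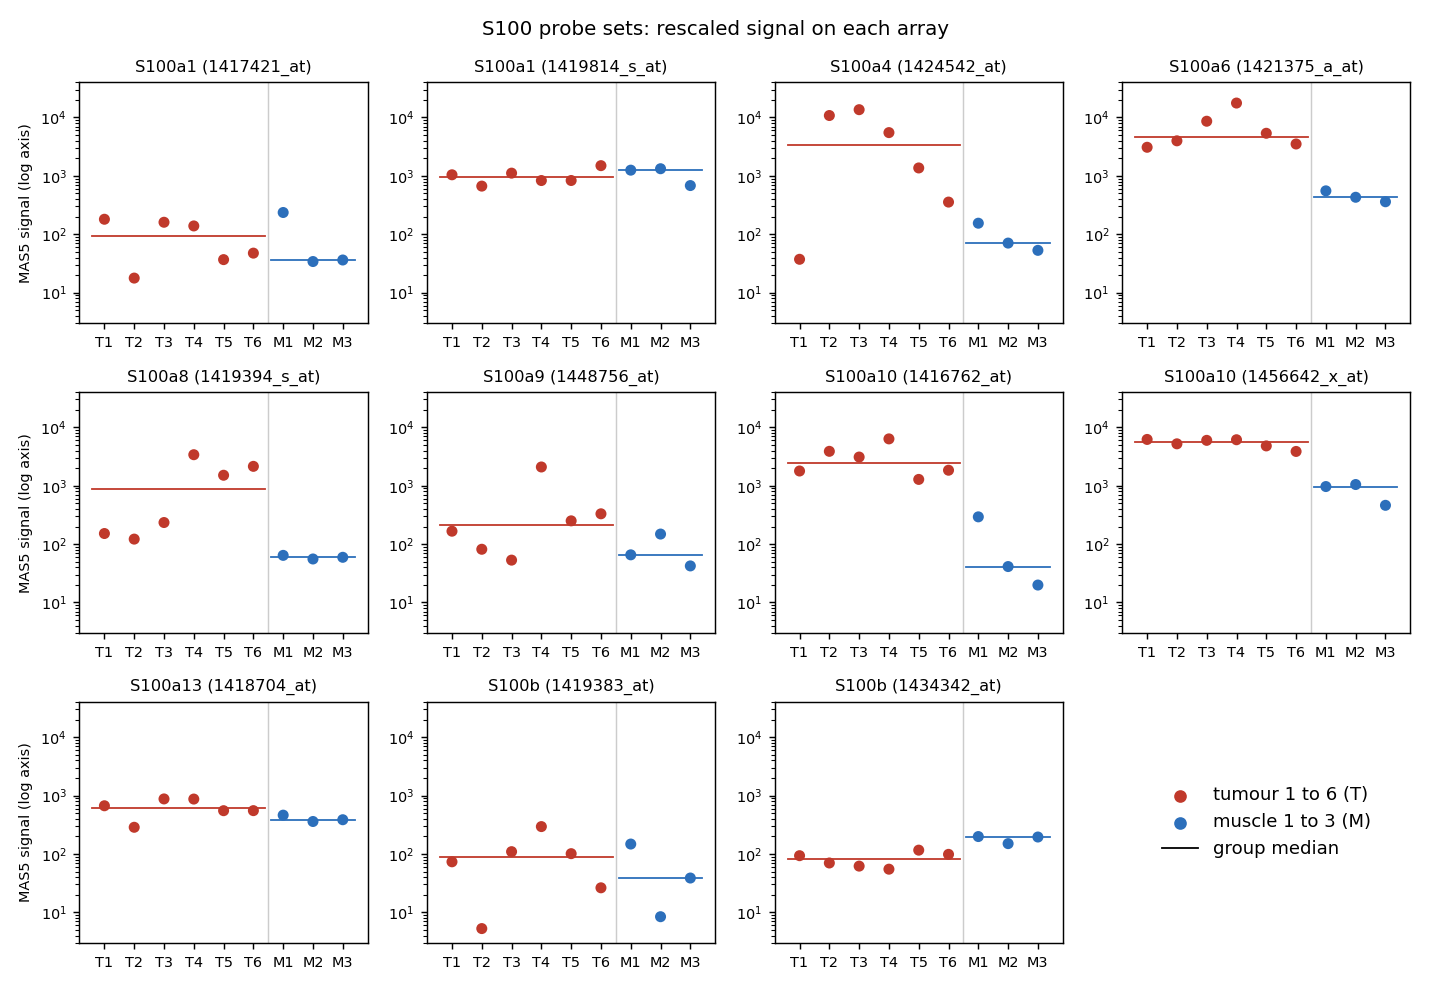
Rescaled MAS5 signal (log axis) of the 11 S100 probe sets on each array, with tumours 1 to 6 in red and muscles 1 to 3 in blue and a line at each group's median. S100a6 and both S100a10 probe sets lie above every muscle in every tumour, S100a4 spans 37 to 13613 across tumours, and S100a8 is highest in tumours 4, 5 and 6.

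Of the 9 genes, 8 lie on mouse chromosome 3 and S100b lies on chromosome 10, in the annotation of the GRCm38.p6 assembly. Among the S100 genes looked up there, S100a1 and S100a13 are next to each other and so are S100a8 and S100a9, while S100a5 lies between S100a4 and S100a6. The 150 bases before the RefSeq start are shown for S100a4, S100a6, S100a8 and S100a9, because these are the chromosome 3 members in the promoter table whose highest tumour signal lay far above every muscle. The windows, read 5' to 3' on the gene's strand, are chr3:90603620-90603769 for S100a4, chr3:90612744-90612893 for S100a6 and chr3:90668921-90669070 for S100a8 on the plus strand, and chr3:90695722-90695871 for S100a9 on the minus strand. None of the 4 windows overlapped another annotated gene. Capitals mark TATAAA.
S100a4: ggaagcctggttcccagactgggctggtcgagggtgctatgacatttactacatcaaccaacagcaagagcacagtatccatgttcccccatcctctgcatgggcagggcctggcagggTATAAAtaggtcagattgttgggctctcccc
S100a6: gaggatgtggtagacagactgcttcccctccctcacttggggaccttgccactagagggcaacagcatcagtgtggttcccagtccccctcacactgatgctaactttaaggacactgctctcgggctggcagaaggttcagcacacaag
S100a8: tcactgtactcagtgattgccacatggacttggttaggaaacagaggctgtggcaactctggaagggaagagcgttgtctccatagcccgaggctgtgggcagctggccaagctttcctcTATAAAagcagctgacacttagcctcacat
S100a9: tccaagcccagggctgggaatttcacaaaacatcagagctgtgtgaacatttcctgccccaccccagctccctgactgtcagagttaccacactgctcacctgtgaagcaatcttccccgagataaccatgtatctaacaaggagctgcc
TATAAA was searched on both strands. It begins 31 bases before the start of S100a4 and 30 bases before the start of S100a8, and these letters are not in the windows of S100a6 and S100a9. Among 32851 start windows of the same length, 7.57% hold TATAAA on either strand and 4.84% on the gene's strand. The E-box letters CANNTG, which read the same on both strands, occur 3 times before S100a8, once each before S100a6 and S100a9, and not before S100a4, and 47.7% of all windows hold at least 1. Of the 9 genes, 8 were in the promoter table, all but S100a10. The genes thus shared neither set of letters across the 4 windows, and S100a6 and S100a8, which both passed the test, differed in TATAAA.

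S100a1 was measured by 2 probe sets that both overlapped between the groups. The brighter one, 1419814_s_at, gave 1044, 668, 1114, 833, 834 and 1497 in tumours 1 to 6, against 1253, 1326 and 683 in muscles 1 to 3. Its highest value was that of tumour 6 and its lowest that of tumour 2, close to muscle 3. The log2 difference was -0.11 with a 95% interval of -0.86 to 0.64 (limma adjusted p = 0.89). The suffix _s_at marks a probe set whose probes can match more than 1 transcript. The dimmer probe set, 1417421_at, gave 181, 18, 161, 139, 37 and 48 in tumours 1 to 6, against 236, 34 and 36 in muscles. Muscle 1 was the highest of all arrays on it and the other muscles were among the lowest, and its log2 difference was 0.08, with an interval of -1.38 to 1.55. A fall of the size seen in muscle fibre genes, with a median log2 difference of -5.13 over 12 genes, lies outside the interval of 1419814_s_at. The muscle signals of 1417421_at were too low for a fall of that size to show on it. Among the muscle proteins that S100a1 is known to bind, Ryr1, the calcium release channel of skeletal muscle, averaged 1360 ± 1388 in the 6 tumours, against 22000 ± 5526 in the 3 muscles (mean ± SD). It fell by 5.16 on the log2 scale (limma adjusted p = 0.0035), and Atp2a1, the fast-fibre calcium pump, fell by 5.10 (limma adjusted p = 0.0011). Both are on the muscle fibre list as well.

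S100a6, calcyclin, was higher in every tumour than in any muscle. Its signal was 3089, 3985, 8628, 17672, 5365 and 3517 in tumours 1 to 6, against 554, 430 and 361 in muscles. Tumour 4 stood highest and tumour 1 lowest, and the lowest tumour was still several times the highest muscle. The mean ± SD was 7043 ± 5581 over the 6 tumours, against 448 ± 98.1 over the 3 muscles, and the log2 difference was 3.65 ± 0.50 (SE), a 12.6-fold rise (limma adjusted p = 0.00023). Folds are on the scale of log2(signal + 16), which understates those of dim genes. An exact two-sided permutation test of the 6 tumours against the 3 muscles gave p = 0.024, the smallest this design allows.

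S100a10 encodes p11, the partner of annexin A2, and both of its probe sets passed the test. The brighter, 1456642_x_at, gave 6202, 5217, 5983, 6129, 4806 and 3863 in tumours 1 to 6, against 968, 1048 and 462 in muscles. Tumours differed little on it: the highest was 1.61 times the lowest, and the spread of log2 values across tumours was larger than in only 2.86% of all genes. Its log2 difference was 2.74 ± 0.35 (SE), a 6.69-fold rise (limma adjusted p = 0.00014). The other probe set, 1416762_at, gave 1786, 3881, 3097, 6338, 1282 and 1842 in tumours, against 293, 41 and 20 in muscles. It also separated every tumour from every muscle, but the fold was larger, at 30.7 (log2 difference 4.94 ± 0.63, limma adjusted p = 0.00014 over all probe sets). The probe sets thus share a direction and not a size, and the muscle signal of 1416762_at was low enough that its fold depends on the offset. On it muscle 1 (293), with a Gapdh 3' over 5' ratio of 1.68, lay above muscles 2 and 3 (41 and 20), with 57.2 and 33.0. Actb ratios were also lower on muscle 1 (1.87) than on muscles 2 and 3 (4.06 and 4.35). The part of RNA quality in this fold was not tested. The suffix _x_at marks probes that can bind other transcripts.

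S100a4, also called metastasin or fibroblast-specific protein, varied more across tumours than any other S100 member. It gave 37, 10807, 13613, 5510, 1367 and 356 in tumours 1 to 6, against 155, 71 and 53 in muscles. Tumour 1 lay below all 3 muscles and the other 5 tumours above them, so the groups overlapped. The highest tumour was 365.0 times the lowest, and the spread of log2 values across tumours ranked at the 99.96th percentile of all genes. The log2 difference was 4.06, with a 95% interval of 1.13 to 6.99, and it was not called (limma adjusted p = 0.055). Without tumour 1 it was 5.05 and passed (adjusted p = 0.002), as it also did without tumour 6 (4.49, adjusted p = 0.042) and without tumours 1 and 4 (4.87, adjusted p = 0.0064), in a range of 0.0002 to 0.19 over 20 alternatives, of which 6 gave a call. S100a4 is also expressed by fibroblasts and macrophages. Of 14 fibroblast markers 1 was higher and 1 lower in tumours, near the 8.66% and 9.09% of all genes. Their median log2 difference was 0.08. Their summed signal was 27813, 104240, 68284, 34129, 24781 and 23222 in tumours 1 to 6, against 40113 to 45499 in muscles. Of 13 macrophage markers 10 were higher, against 8.66% of all genes. Their median was 2.25. Their summed signal was 43051, 26940, 33630, 21981, 24885 and 11254 in tumours 1 to 6, against 3590 to 5207 in muscles. The part of fibroblasts and macrophages in the S100a4 signal was not tested.

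S100a13, whose protein takes part in the release of fibroblast growth factor 1, differed less. Its signal was 668, 286, 875, 871, 550 and 552 in tumours 1 to 6, against 462, 359 and 385 in muscles. Tumour 2 lay below the muscles and the other 5 tumours above them. The log2 difference was 0.56, with a 95% interval of -0.26 to 1.38, and was not called (limma adjusted p = 0.39). Fgf1 itself differed by -0.16 ± 0.52 (log2 ± SE, limma adjusted p = 0.90) and is given as the S100a13 partner, outside the rule for named genes.

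**Figure D2:**
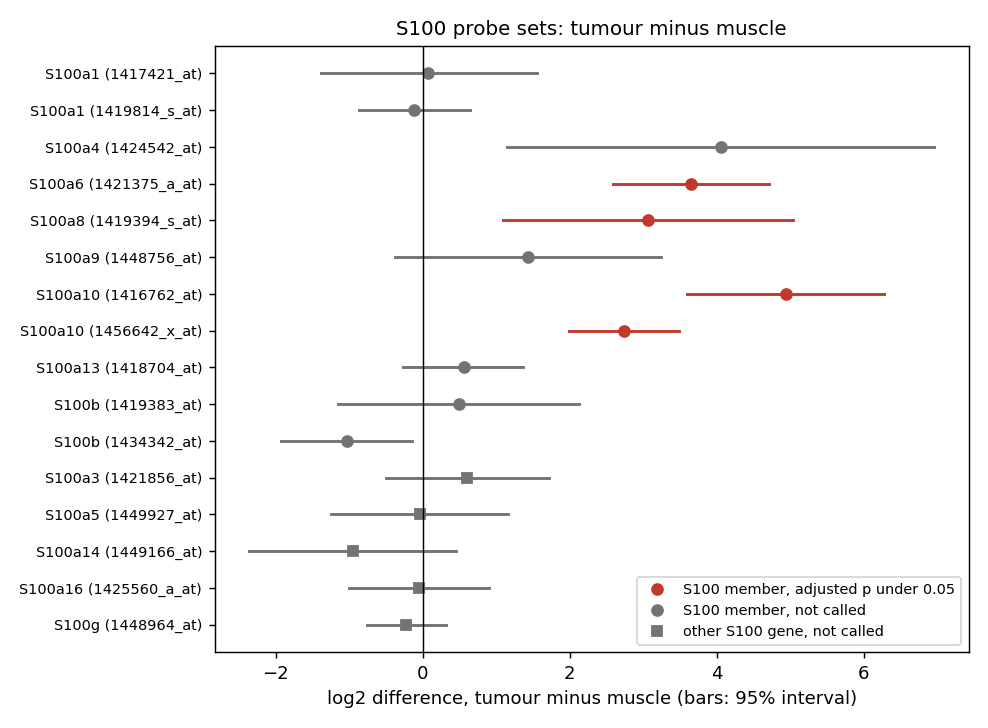
Log2 difference of each S100 probe set, tumour minus muscle, with its 95% interval from limma over all probe sets. Circles are the 11 member probe sets and squares the 5 other S100 genes; the 4 red ones, of S100a6, S100a8 and S100a10, have an adjusted p under 0.05.

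S100a8 passed the test with tumours of very different levels. Its only probe set, 1419394_s_at, has the suffix of probe sets whose probes can match more than 1 transcript. Its signal was 152, 122, 234, 3396, 1511 and 2146 in tumours 1 to 6, against 64, 56 and 59 in muscles. All 6 tumours lay above all 3 muscles, with tumours 4, 5 and 6 high and tumours 1, 2 and 3 nearer to the muscles. The log2 difference was 3.07 ± 0.93 (SE), an 8.39-fold rise (limma adjusted p = 0.034). This call was lost without any 1 of tumours 4, 5 and 6 (adjusted p = 0.059, 0.07 and 0.064) or of muscles 1, 2 and 3 (0.092, 0.11 and 0.11), and also with quantile normalization (0.05 when rounded), median centring (0.053) and an offset of 64 (0.052). Under these 9 settings the log2 difference was 2.55 to 3.11. The tenth loss, with a replicate block, gave 1.25 (adjusted p = 0.16), the highest p of a range from 0.0003 over 20 alternatives, and the difference stayed positive in each of them.

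S100a9, the other calprotectin chain, was highest in the same tumour and was not called. Its signal was 166, 82, 53, 2093, 250 and 330 in tumours 1 to 6, against 66, 149 and 42 in muscles. Tumour 4 stood far above the rest, tumours 5 and 6 came next, and tumours 2 and 3 lay within the range of the muscles. The log2 difference was 1.44, with a 95% interval of -0.38 to 3.25 (limma adjusted p = 0.30). The spread across tumours was at the 99.46th percentile of all genes for S100a8 and the 98.6th for S100a9. With the values as deposited, without rescaling, S100a9 was called (1.98, adjusted p = 0.046).

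Of 18 granulocyte markers 13 were measured, 2 were higher in tumours and 11 were not called, against 8.66% called higher over all genes, with a median log2 difference of 0.16. Their summed signal was 3851, 1283, 2810, 3723, 3151 and 3875 in tumours 1 to 6, against 2431, 1554 and 1452 in muscles. Tumour 2 lay below all muscles and the other 5 tumours above them. The granule genes Mpo, Elane, Prtn3 and Camp had signals of at most 619, 491, 63 and 48 in tumours and 319, 495, 79 and 13 in muscles. Camp lay above every muscle in every tumour, without a call (adjusted p = 0.096), and the receptor genes Csf3r and Cxcr2 were not called (adjusted p = 0.35 and 0.80). None of the 13 was listed at 0. The 2 called were Mmp9, gelatinase B, at a log2 difference of 1.52 ± 0.37 (limma adjusted p = 0.011) and Chil3, a chitinase-like protein also made by macrophages, at 2.18 ± 0.64 (adjusted p = 0.03). The call of Mmp9 was lost without muscle 1, without muscle 3 and with a replicate block (adjusted p up to 0.11). That of Chil3 was lost without tumour 4, tumour 5 or any 1 muscle, with an offset of 64 and with a replicate block (up to 0.11). Lcn2, lipocalin 2, gave 368, 9, 87, 999, 388 and 1581 in tumours 1 to 6, against 110, 44 and 32 in muscles (adjusted p = 0.21), so that tumours 4 and 6 were the highest and tumour 2 the lowest, as for S100a8. Among tumours, Mpo, Elane and Prtn3 were highest in tumour 1, Camp in tumour 2, Csf3r in tumour 3 and Cxcr2 in tumour 4. Lcn2 and these 6 genes of low or uncalled signal are named after their values were seen. The part of myeloid cells in the S100a8 and S100a9 signals was not tested.

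**Figure D3:**
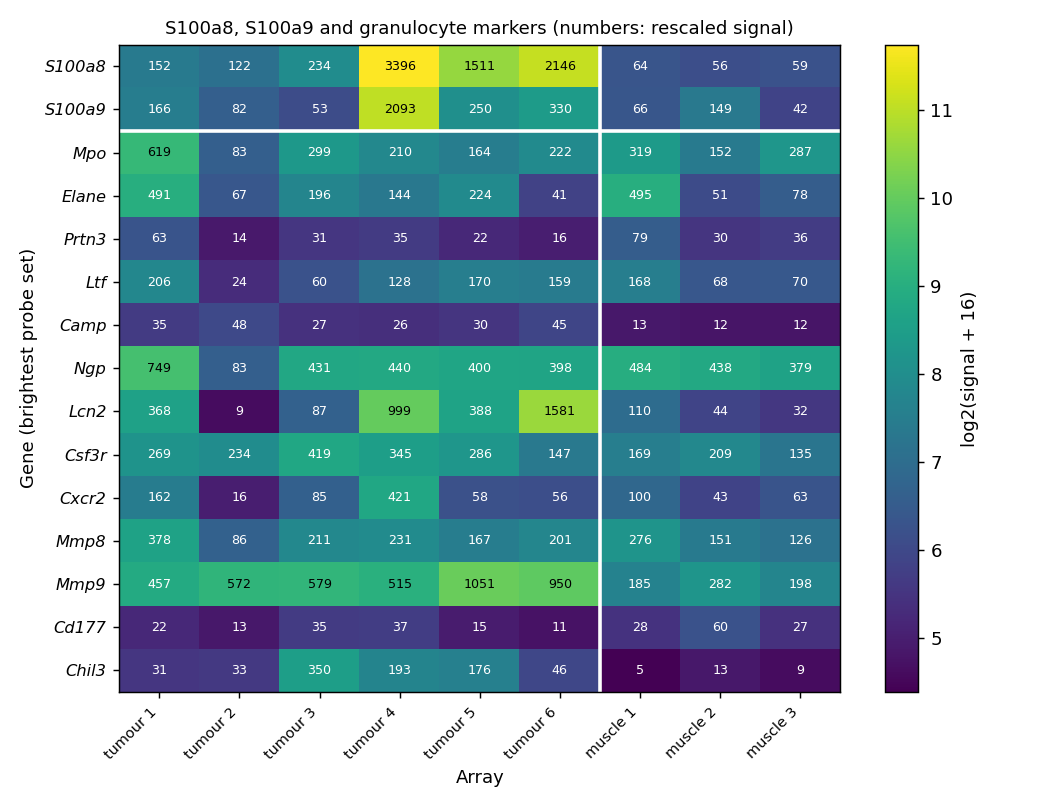
Rescaled signals (printed in each cell, colour on the scale of log2(signal + 16)) of S100a8, S100a9 and 13 granulocyte markers on each array. S100a8 reaches 3396, 1511 and 2146 in tumours 4, 5 and 6, where Lcn2 reads 999, 388 and 1581. In tumour 1 Lcn2 reads 368 and S100a8 152. Mpo and Elane are highest among tumours in tumour 1 (619 and 491), and Cxcr2 in tumour 4 (421). Prtn3, Camp and Cd177 stay under 100 on every array.

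The 2 probe sets of S100b disagreed in sign. The one with the higher mean log2 value, 1434342_at, gave 93, 70, 62, 55, 116 and 98 in tumours 1 to 6, against 199, 150 and 195 in muscles. After rescaling every tumour lay below every muscle. The log2 difference was -1.03 ± 0.40 (SE), which was not called (limma adjusted p = 0.10, exact two-sided permutation p = 0.024, unadjusted). In the deposited values muscle 3 read 55, inside the tumour range, and the difference was -0.27 (limma adjusted p = 0.73). As the mean of both rescaled probe sets it was also -0.27 (adjusted p = 0.78). The other, 1419383_at, gave 73, 5, 109, 294, 101 and 26 in tumours, against 148, 8 and 39 in muscles, and its groups overlapped (log2 difference 0.49, interval -1.15 to 2.13). All of these signals lay below the median gene, whose mean signal was 303 in tumours and 249 in muscles. Adipocyte genes were far lower in tumours, with 6 of 7 called lower, against 9.09% of all genes. Their median log2 difference was -3.35 and their summed signal 2007 to 35562 in tumours and 43805 to 53850 in muscles. Car3, carbonic anhydrase 3, alone gave 33562 of the highest tumour sum, that of tumour 1, and 20142 to 31449 in muscles. The next highest tumour sum was 4460, in tumour 6. Adipoq, adiponectin, fell by 6.03 on the log2 scale (limma adjusted p = 4.4e-06). Of 8 measured Schwann cell markers 1 was lower and none higher, against 9.09% and 8.66% of all genes. It was Mbp, which encodes myelin basic protein, at -2.04 ± 0.58 (limma adjusted p = 0.025). The median log2 difference of the 8 was -0.64, and their summed signal was 2964 to 4625 in tumours and 3511 to 5836 in muscles. The Mbp call was lost under 4 of 19 alternatives, which were without muscle 1, without muscle 2, without rescaling and with a replicate block (adjusted p up to 0.16). Sox10, a defining Schwann cell gene, and Egr2 lay higher in tumours on average, by 0.77 and 1.48 on the log2 scale. Neither was called (limma adjusted p = 0.40 and 0.10), and both are named after their values were seen. The part of these cells in the S100b signal was not tested.

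Other genes of the family did not pass the test. Of 9 further S100 genes listed 5 were measured, none was called, and their median log2 difference was -0.05. S100a16, the brightest of them, gave 967, 2129, 4124, 1697, 4268 and 1709 in tumours 1 to 6, against 2276, 2408 and 2063 in muscles. It was high in both groups, tumours lay on both sides of the muscles, and its log2 difference was -0.05, with a 95% interval of -1.0 to 0.91 (limma adjusted p = 0.97). S100a5 ranged from 67 to 642 in tumours and from 234 to 296 in muscles, and S100a3 from 61 to 202 and from 29 to 149. S100a14 and S100g, the intestinal calcium carrier calbindin-D9k, had mean signals under 100 in both groups. Along chromosome 3, S100a5 lies between S100a4 and S100a6. It overlapped between the groups, as S100a4 did and S100a6 did not.

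Genes of S100 binding partners and receptors were called in both directions, and most were not called. Of 32 genes on this list 31 were measured, 6 were higher, 5 lower and 20 not called, with a median log2 difference of -0.20. Over all genes 8.66% were called higher and 9.09% lower, and 17.8% in either direction. The largest rises were those of 3 annexins. Anxa1, annexin A1, an S100a11 partner, differed by 2.96 ± 0.42 (log2 ± SE, limma adjusted p = 0.00032). Anxa2, the annexin that S100a10 binds, gave 4153, 14780, 12312, 9790, 10441 and 8723 in tumours 1 to 6, against 1690, 2075 and 1380 in muscles. Tumour 1 was the lowest tumour for Anxa2. For S100a10 it was the highest on probe set 1456642_x_at (6202, with tumour 4 at 6129). On probe set 1416762_at it was near the lowest (1786, with tumour 5 at 1282). The log2 difference of Anxa2 was 2.46 ± 0.41 (adjusted p = 0.0011), but 1.32 as the mean of its 3 probe sets (adjusted p = 0.017, the highest of its range from 4e-05). That of Anxa5, annexin A5, was 2.50 ± 0.52 (adjusted p = 0.0044). The largest falls were those of Ryr1 and Atp2a1, given above, and of Cd36, a fatty acid transporter, at -3.32 ± 0.62 (adjusted p = 0.0021). The receptors of extracellular S100 proteins were not called: Ager had mean signals of 31.2 in tumours and 24.6 in muscles, and Tlr4 201 and 227 (adjusted p = 0.86 and 0.76). These 2 receptors are named after their values were seen.

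**Figure D4:**
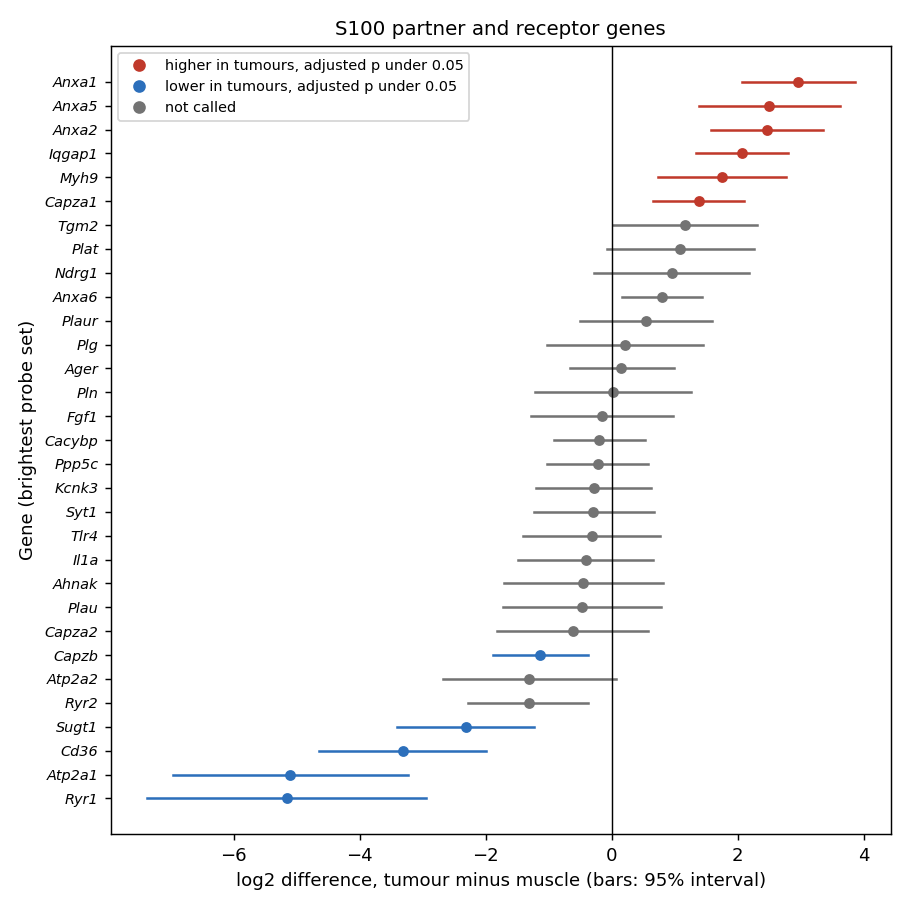
Log2 difference, tumour minus muscle, of 31 genes of S100 binding partners and receptors, ordered by size, with 95% intervals from limma over all genes. The 6 in red, led by Anxa1, were called higher in tumours, and the 5 in blue, with Ryr1 and Atp2a1 lowest, were called lower.

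Of 29 listed calcium-binding EF-hand genes outside the S100 family 24 were measured, 6 were higher, 2 lower and 16 not called, with a median log2 difference of 0.53. Over all genes 8.66% were higher and 9.09% lower, so the share of lower genes was near that background. Lcp1, the leukocyte actin bundler L-plastin, differed by 2.80 ± 0.45 (limma adjusted p = 0.00075), and Rcn3 and Rcn1, reticulocalbins of the endoplasmic reticulum, by 2.43 ± 0.54 and 2.21 ± 0.60 (adjusted p = 0.0064 and 0.021). Rcn3 was not called without muscle 3 (0.051, the highest of its range from 0.00089). Rcn1 was not called without muscle 1 or muscle 3, nor with median centring, with adjusted p up to 0.11 in a range from 0.00015. The 2 lower genes were those of muscle fibres, Pvalb, parvalbumin, and Tnnc2, the fast troponin C, which fell by 6.41 and 4.35 on the log2 scale (adjusted p = 0.00034 and 0.0012).

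The genes whose log2 signals followed S100 members most closely over the 9 arrays were taken from those brighter than the median gene. S100a6 was followed by Srsf9, a splicing factor, Notch2, a Notch receptor, and B2m, the light chain of class I histocompatibility molecules, with Pearson r of 0.982, 0.977 and 0.976. S100a8 was followed by Gprasp1, Adam8, a metalloproteinase of myeloid cells, and Srgap3, with r of 0.965, 0.951 and 0.941. S100b was followed by Setd3, Rtn2 and Tmem223 (0.968, 0.944 and 0.944), and S100a1 by Saysd1, Emc10 and Zfp276 (0.825, 0.822 and 0.801). No other S100 member was among these 12 genes, but S100a9 and S100b were dimmer than the median gene and could not be listed. The values describe 9 arrays that include the difference between the groups and the level of each array, and they were not tested.

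**Figure D5:**
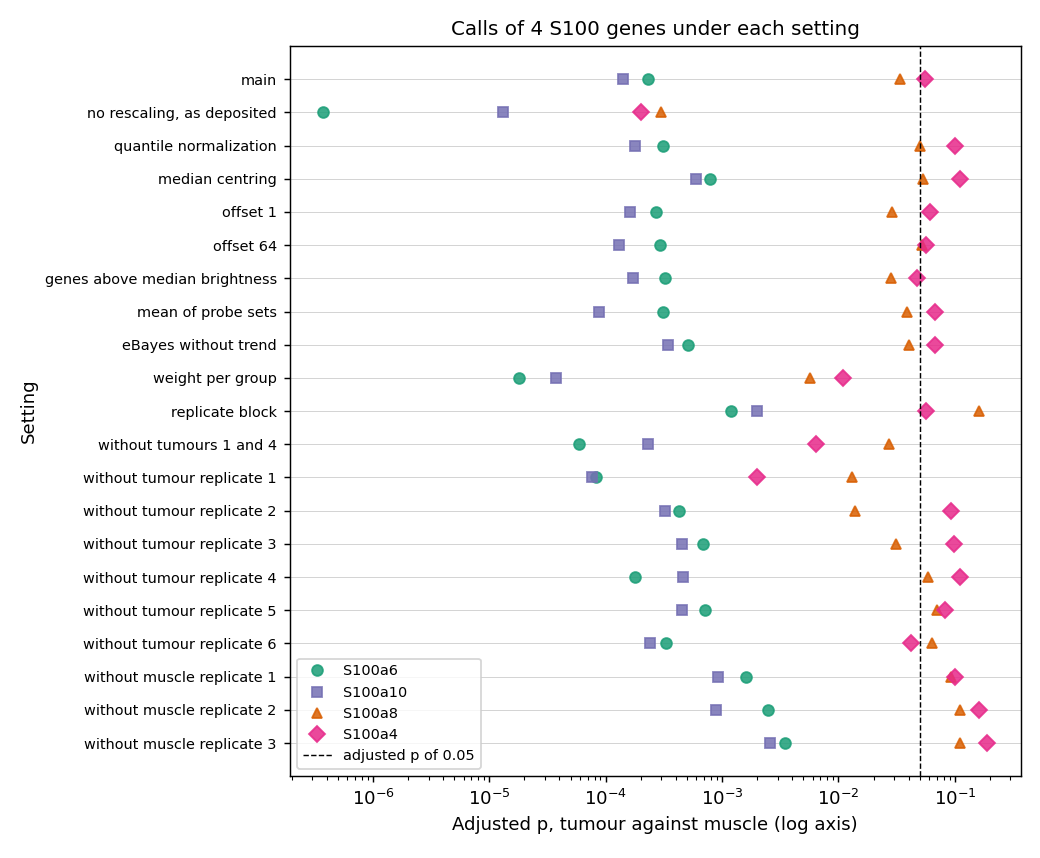
Adjusted p (log axis) of S100a6, S100a10, S100a8 and S100a4, tumour against muscle, in the reported comparison (top, main) and under 20 alternatives, with the threshold of 0.05 dashed. S100a6 and S100a10 stay below it under all 20, S100a8 under 10 and S100a4 under 6.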

How the data were processed

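Biotin-labelled total RNA (Trizol, then RNAeasy, per the labels' protocols) of 6 tumours and 3 muscles gave 1 deposited MAS5 signal intensity per probe set and array. The submitters' processing notes name MAS5 and no version. The method subtracts background, so low signals can be background. No source used here gives the scaling target, filters or genome build. The 9 S100 genes, the 11 gene lists and the tests were chosen with earlier results of these data known.

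Every array was multiplied to the median of the 9 trimmed means (2% cut at each end); the factors were 1.6995 (muscle 1) and 3.5493 (muscle 3). No columns were duplicates and all were used. Of 22690 probe sets 64 controls were left out, 20380 had 1 symbol, 691 several and 1555 none, and only those with 1 were named. A gene was represented by the probe set whose log2 values averaged highest over 9 arrays.

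Values of log2(signal + 16) were fitted in limma 3.58.1 under R 4.3.3 (lmFit, eBayes with a trend) over all 12393 genes, and again over all 20380 probe sets, with Benjamini-Hochberg adjustment. The fit was also tested on simulated data. Lists are described by counts, without a test. Named are all members, the other S100 genes measured, up to 3 called genes with the largest rise and fall per list, and the 3 most similar genes of 4 members. Permutation tests used scipy 1.17.1, numpy 2.4.6 and pandas 2.3.3 in Python 3.11.15. Promoters are from RefSeq on GRCm38.p6. The alternatives were other scalings, offsets of 1 and 64, a brightness filter, means of probe sets, no trend, a weight per group, an exact permutation test, a replicate block, and leaving out arrays.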

Additional observations from a re-analysis of the deposited data

Results flagged for a closer look

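Among the 6 tumours, a value was marked where its gap to the nearest tumour over the whole range, on the scale of log2(signal + 16), exceeded Dixon's 95% critical value, which chance does in about 1 of 20 sets. Of 43 sets of 6 tumours looked at, 5 were marked, and 4 of these had tumour 1 lowest. None of the 16 S100 probe sets was among them. Tumour 1 was far below the other tumours for the S100 partner genes Anxa1 (gap of 0.681 of the range) and Anxa5 (0.88), for the reticulocalbin gene Rcn1 (0.664) and for the lipase gene Lpl (0.64). Tumour 6 was far below the others for the complement gene C1qc (0.78).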

How the results depend on the processing

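S100a6 and S100a10 kept their direction and their call under all 20 alternatives with an adjusted p, with log2 differences of 3.33 to 4.46 and 2.38 to 3.84. S100a8 kept its direction under all 20 and its call under 10. S100a1 and S100a13 were called under none. The count of called S100 members, 3 in the reported comparison, was 5 without rescaling (S100a4 and S100a9 joined) and 5 with a weight per group (S100a4 joined as higher and S100b as lower), and 2 to 4 when 1 array was left out. Without tumour 6 it was again 3, but with S100a4 in place of S100a8. Called S100 probe sets numbered 3 to 5 when 1 array was left out. Over all genes the count of 2200 became 1110 to 2769, lowest without muscle 3, with 1267 without muscle 2. The cause of these changes was not tested. Groups share replicate numbers, but same-numbered tumours and muscles deviated from their group means with correlations of 0.228, 0.177 and -0.018, so the numbers were not taken as pairs. With a replicate block, which rests on tumours 1 to 3 and the muscles, 1434 genes and 2 S100 members were called, and S100a8 differed by 1.25 (adjusted p = 0.16). Of 44 other genes picked by the naming rule, 12 changed their call under some alternative, no called difference changed sign, and 6 uncalled differences did, as did that of S100a1. The dim probe sets, those of S100b and 1417421_at of S100a1, lie where MAS5 background limits precision. On 1417421_at and 1419383_at muscle 1, with the lowest 3' over 5' ratios, read 236 and 148. Muscle 2 read 34 and 8 there, and muscle 3 read 36 and 39. Tumour 4 had the lowest tumour ratios (Gapdh 1.93, Actb 3.35) and the highest tumour signal on 5 of the 11 S100 probe sets. The part of RNA quality in these signals was not tested.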

Other observations

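Keratins of simple epithelia were higher in the tumours, while other epithelial markers were not called. Krt8 averaged 5750 ± 3203 in the 6 tumours, against 222 ± 71.3 in the 3 muscles (mean ± SD). Krt18, its filament partner, averaged 2328 ± 1155 in tumours, against 104 ± 40.7 in muscles. Their log2 differences were 4.32 ± 0.61 and 4.21 ± 0.44 (SE; limma adjusted p = 0.00031 and 3e-05), and no tumour overlapped a muscle for either. These were the 2 called of 11 epithelial markers, against 8.66% of all genes called higher, and the median log2 difference of the 11 was 0.70. Cdh1 and Epcam, adhesion genes of epithelia, had mean signals of 100.1 and 77.4 in tumours and 75.5 and 20.8 in muscles (adjusted p = 0.61 and 0.32). Dsp and Perp, also uncalled, had mean signals of 2639 and 516.6 in tumours and 191.6 and 139.4 in muscles (limma adjusted p = 0.22 and 0.53). Krt10 and Krt1 differed by -0.28 and -0.32 on the log2 scale, without a call. Cdh1, Epcam, Dsp, Perp, Krt10 and Krt1 are named after their values were seen.

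Macrophage markers were led by C1qa, Fcgr3 and C1qc, a complement chain, an Fc receptor and another complement chain. They were higher in tumours by 4.54 ± 0.50, 3.69 ± 0.48 and 3.67 ± 0.43 on the log2 scale (limma adjusted p = 4.5e-05, 0.00018 and 8e-05). Among fibroblast markers, Vim, vimentin, was higher by 1.61 ± 0.40 (adjusted p = 0.013) and Lum, lumican, fell by 1.83 (adjusted p = 0.029), and the Lum call was lost under 10 of 20 alternatives, among them without any 1 of tumours 4 to 6 or of the muscles (adjusted p up to 0.23). The Vim call was lost without muscle 2, without muscle 3 and with median centring (up to 0.071).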
